A study of Mus musculus with 9 samples.

Results

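The genes of the cytosolic ribosomal proteins were followed in the media of mouse femoral arteries after wire injury, with and without an inhibitor of focal adhesion kinase (FAK, encoded by Ptk2). Genes were taken by name from the deposited tables, as symbols beginning with Rpl or Rps and a number, Rplp0 to Rplp2 and Rpsa, without pseudogenes marked -ps and without the S6 kinases. This gave 90 genes of the 17093 in the tables, and 89 of them had values in all 9 libraries. They comprise 46 large-subunit and 31 small-subunit genes, 12 paralogs or processed copies of such genes, and Rps19bp1, which the name rule takes but which encodes a binding protein and no subunit.

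All mice were C57BL/6, and each of the 3 groups had 3 libraries. The sham group was not wire-injured. The injured group was wire-injured without the inhibitor. The inhibitor group was wire-injured and received VS-4718 at 50 mg/kg by gavage 2 times a day for 2 weeks. The protocol names citrate at pH 6.0 as the vehicle given in place of the inhibitor, and it does not say what sham mice received. Injured arteries of both groups were taken at day 14. The labels describe vessels stripped of fat and adventitia whose lumen was flushed with lysis reagent to remove endothelial and immune cells, and they do not say how many animals a library holds, so p-values measure the spread between these libraries. The comparison asks how FAK activity bears on the transcripts of medial smooth muscle cells after injury. The libraries held between 14676891 and 21248740 reads in genes.

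The cytosolic ribosome joins a small subunit, which reads the mRNA, with a large subunit, which forms the peptide bond. Its proteins are made in matched amounts, and their mRNAs are among the most abundant of a cell. Most begin with a C followed by a run of pyrimidines, the 5′ terminal oligopyrimidine or TOP tract, through which their translation is regulated by the kinase mTOR and the protein Larp1. Growth signals and the transcription factor Myc are known to raise ribosome production.

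The first bases of several of these genes are shown because the tract is the feature the family is known to share. Each line gives 15 bases before and 15 from the start annotated by RefSeq (GRCm38.p6), with capitals for a C within 5 bases of the start and the C or T letters that follow it, where at least 4 do. Rps18, Rps26 and Rpl27a had lower levels with the inhibitor than after injury and hold such a run, as does Rpl15, whose level differed little. Rps28, Rpl11 and Rpl23 were also lower and have no such run in this window, nor has Rpl10, which differed little. The windows lie at chr17:33955651-33955680 (Rps18, minus strand), chr10:128626492-128626521 (Rps26, minus strand), chr7:109519180-109519209 (Rpl27a, plus strand), chr14:18270972-18271001 (Rpl15, minus strand), chr17:33824548-33824577 (Rps28, minus strand), chr4:136053379-136053408 (Rpl11, minus strand), chr11:97782425-97782454 (Rpl23, minus strand) and chrX:74270801-74270830 (Rpl10, plus strand).
Rps18: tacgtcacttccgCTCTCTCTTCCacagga
Rps26: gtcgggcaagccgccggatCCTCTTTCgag
Rpl27a: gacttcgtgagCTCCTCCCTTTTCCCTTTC
Rpl15: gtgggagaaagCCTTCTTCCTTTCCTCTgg
Rps28: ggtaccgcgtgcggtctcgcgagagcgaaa
Rpl11: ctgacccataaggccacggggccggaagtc
Rpl23: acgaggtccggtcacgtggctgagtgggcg
Rpl10: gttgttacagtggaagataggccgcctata

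RefSeq promoters were matched for 57 of the 77 subunit genes. A run at the start was found in 27 of them, or 47.4%, against 21.2% of the 27025 genes with a promoter entry and 24.6% of 69 mitochondrial ribosomal protein genes. The letters CCGGAAG, searched on both strands of the 300-base window and chosen after the sequences were seen, occurred in 42.1% of the subunit genes and in 9.93% of all genes. They also occurred in 37.7% of the mitochondrial ribosomal protein genes. Fold changes were much alike with and without the run. In the inhibitor group against the injured group, the median log2 fold change was -0.35 in the 27 genes with it and -0.34 in the 30 without it. In injured against sham it was 0.28 and 0.23. The annotated starts were not checked against these libraries, so genes counted as without the run may still hold a tract. A gene with several annotated starts was counted if any had the run. The part of the tract in the fold changes was therefore not tested.

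Levels are normalised read counts on 1 scale over the 9 libraries. They are not divided by transcript length, so they compare libraries and not genes. The mean sham level of the 77 subunit genes ran from 2004 for Rpl24 to 18054 for Rpl4, with a median of 6771. The 11 second copies with values in every library ran from 4.24 to 1711, with a median of 56.9.

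The injured libraries differed widely among themselves, while the sham libraries lay close together, as did the inhibitor libraries. The share of all reads that fell in these genes was 3.20%, 2.99% and 3.06% in sham replicates 1 to 3. It was 4.85%, 4.07% and 3.22% in injured replicates 1 to 3, and 2.89%, 2.82% and 2.66% in inhibitor replicates 1 to 3. As means the shares were 3.08% ± 0.106 in sham, 4.05% ± 0.817 in injured and 2.79% ± 0.119 in inhibitor (SD, n = 3). The share of injured replicate 3 lay just above the highest sham library, and all inhibitor libraries lay below all sham libraries. On the common scale over the 9 libraries, the summed level of these genes was 532031 in injured replicate 3 and 572317 to 603227 in sham. The place of that library against sham thus depended on the scaling.

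Each gene's log2 level was then set against its own mean over the 9 libraries. The median over the 89 genes was 0.48 in injured replicate 1, 0.28 in injured replicate 2 and -0.16 in injured replicate 3. It was 0.01, -0.08 and -0.04 in the sham libraries and -0.11, -0.13 and -0.24 in the inhibitor libraries. Among the 88 genes that averaged at least 10 normalised counts, injured replicate 3 was the lowest injured library for all 88, against 39.7% of all genes. Injured replicate 1 was the highest for 84 of them, against 35.4% of all genes. The family therefore moved as a block between libraries of the same group.

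**Figure D1:**
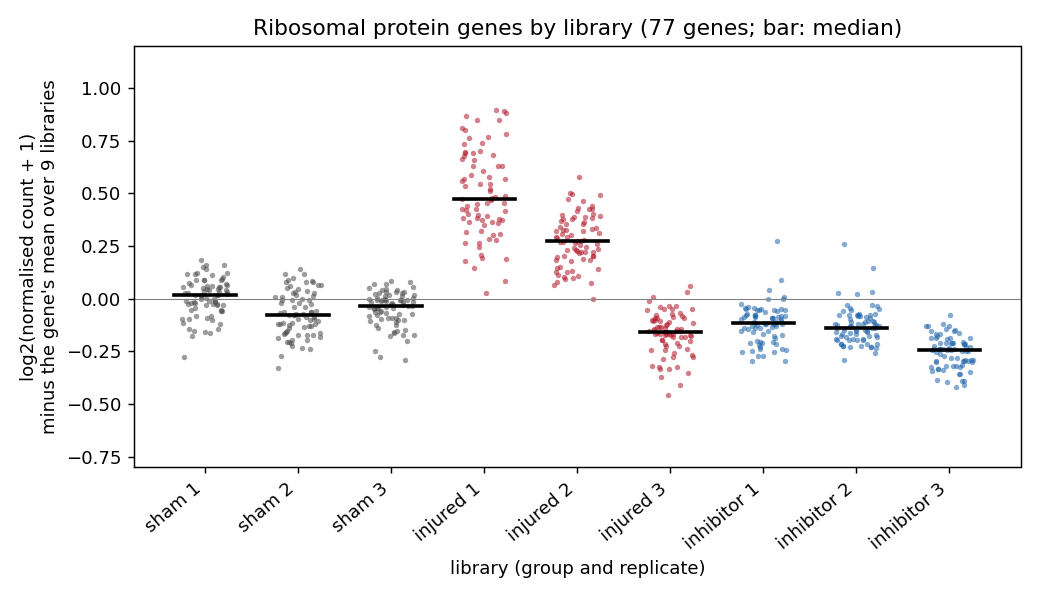
Log2 level of each of the 77 subunit genes minus its mean over the 9 libraries (vertical axis), by library; points are genes and bars are medians. Injured replicates 1 and 2 sit above the sham libraries, while injured replicate 3 sits below them beside the inhibitor libraries.

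After injury, 3 ribosomal protein genes were higher past the threshold and 0 were lower. The call was an adjusted p under 0.05 from limma on log2(normalised count + 1), adjusted by Benjamini-Hochberg over all 16278 genes tested. The 3 genes are 3.37% of the 89, where 20.6% of all genes were called higher and 16.8% lower. The median log2 fold change of the family was 0.23, against -0.00 over all genes, and 77 of the 89 values were above 0. At an unadjusted p under 0.05, limma gave 13 higher, or 14.6% against 25% of all genes, and 0 lower against 21.9%. edgeR called 4 higher, where it called 20.8% of all genes.

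The called genes were Rps28, Rpl39 and Rps4l. Rps28 encodes a small protein at the mRNA exit of the small subunit and lies on chromosome 17 (33819027 to 33824562, GRCm38). Its level was 3566, 3341 and 3393 in sham, 7500, 6019 and 4205 in injured and 3469, 3479 and 3073 in inhibitor libraries. Every injured library was above every sham and inhibitor library. Rps28 rose 1.67-fold with injury (log2 fold change 0.74, SE 0.20, limma adjusted p = 0.0186).

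Rpl39, on the X chromosome (37082520 to 37085402), encodes a small protein lining the tunnel through which the new peptide leaves. It was at 3423, 3055 and 3336 in sham, 5683, 4814 and 3809 in injured and 4076, 3902 and 3112 in inhibitor libraries. The injured libraries lay above the sham libraries and overlapped the inhibitor libraries. It rose 1.43-fold with injury (log2 fold change 0.52, SE 0.16, limma adjusted p = 0.0299). Rps4l, annotated as a transcribed processed pseudogene on chromosome 6, is a copy of Rps4x, so that reads of the 2 genes may be split uncertainly. Its levels were 215, 232 and 235 in sham, 379, 376 and 305 in injured and 218, 236 and 170 in inhibitor libraries, and the injured libraries overlapped neither other group. Rps4l rose 1.54-fold (log2 fold change 0.62, SE 0.15, limma adjusted p = 0.0103), while Rps4x stood at 0.20 on the log2 scale with a standard error of 0.16 (limma adjusted p = 0.375).

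These counts rested on single libraries. Without injured replicate 3, 54 of the 89 genes were higher, where 24.1% of all genes were called higher, and 0 were lower, where 20.8% of all genes were. Without injured replicate 1 it was 2 higher, or 2.25% against 18.6% of all genes. Without injured replicate 2 or any 1 sham library it was 1, or 1.12%, against 15.8% to 18.9% of all genes. Without the 3 libraries that stood apart in earlier work on these data (sham 3, injured 2, inhibitor 3) it was 1 higher, against 15.6% of all genes, and 0 lower, against 9.85%. That fit keeps injured replicates 1 and 3, the highest and lowest injured libraries for this family. By log2 levels, injured replicate 2 correlated with replicates 1 and 3 at Pearson r = 0.973 and 0.964, and those correlated with each other at 0.962. DESeq2 on the recovered reads called 17 genes higher, or 19.1%, and the authors' deposited table called 16 of the 89 higher, or 18.0%; how many genes those calls share was not counted. Both called 21.9% of all genes higher.

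Levels within the injured libraries also differed by transcript length. Ribosomal protein transcripts are short, with a median of 776 nt against 2705 nt for other protein-coding genes. Among the 130 other protein-coding genes under 600 nt (mean level of at least 100), the median centred log2 level was 0.24, 0.17 and -0.27 in injured replicates 1 to 3. Among the 3095 of at least 4000 nt it was -0.17, -0.11 and 0.05. The 23 ribosomal protein genes under 600 nt stood at 0.68, 0.35 and -0.15 in the same libraries, above the other short genes in all of them. The sham and inhibitor libraries showed a smaller span over length. Fold changes between groups had small correlations with length. In injured against sham, Pearson r with log2 length was -0.03 over 84 ribosomal protein genes and -0.06 over 14024 other genes. In inhibitor against injured it was -0.03 and 0.06, and in inhibitor against sham -0.18 and 0.005.

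**Figure D2:**
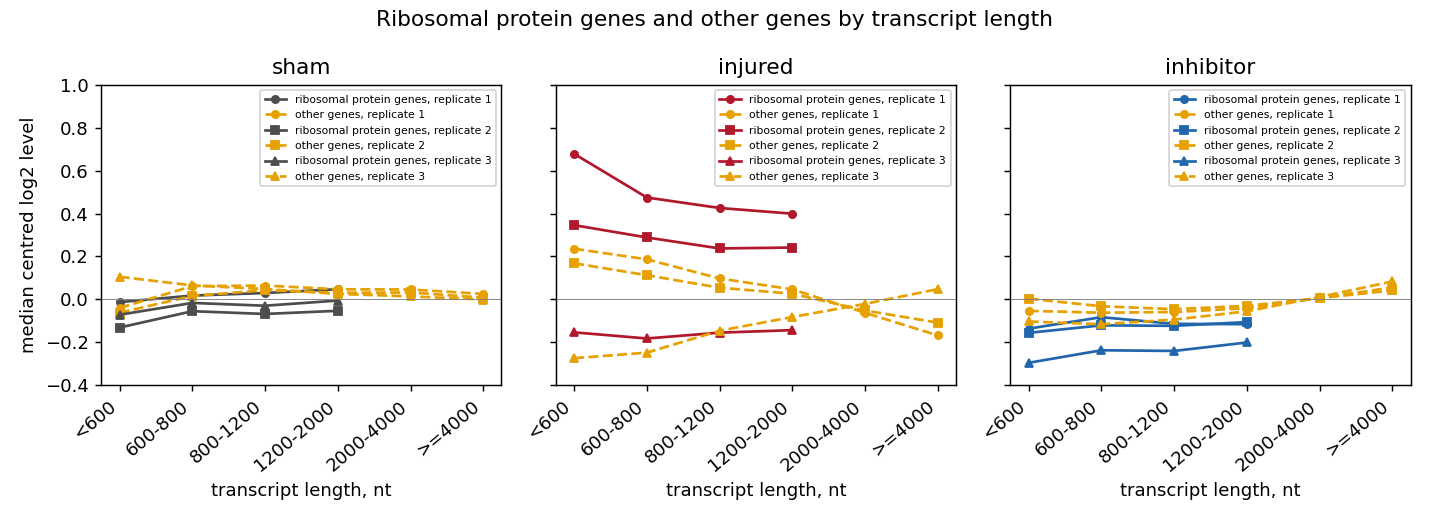
Median centred log2 level (vertical axis) by transcript length in nt (horizontal axis) for ribosomal protein genes (solid) and other protein-coding genes (dashed), 1 line per library; bins with under 8 genes are not drawn, and the 1200 to 2000 nt bin holds 8 ribosomal protein genes. In injured replicates 1 and 2 both sets fall with length, and in replicate 3 the other genes rise with it.

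A correction for length and GC content was added after the data were seen, and it was run in 2 forms. The form run first removed a least-squares trend fitted in each library on the other genes. It gave 1 ribosomal protein gene higher and 11 lower in injured against sham, of 85 tested, where 18.8% and 36.6% of all genes were called, with a median log2 fold change of -0.10. It also moved the median over all genes to -0.24, and for that reason a robust trend centred on its median was run next. That form gave 13 higher, against 22.8% of all genes, and 0 lower, and a median of 0.16, with the median of all genes at -0.02. The family lay above the median of all genes in both forms, but the sign of its own median and of its calls was not the same. In inhibitor against injured the forms gave 11 and 26 genes lower, against 18.2% and 21.2% of all genes. In inhibitor against sham they gave 30 and 0, against 11.9% and 0.928%. The part of length in the differences between groups was not tested beyond these fits.

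With the inhibitor, 13 of 90 ribosomal protein genes were lower than after injury without it and 0 were higher. That is 14.4%, where 18.5% of the 16901 genes tested were called lower and 17.6% higher. The median log2 fold change was -0.35, against 0.01 over all genes, and 86 of the 90 values were below 0. At an unadjusted p under 0.05, 35 were lower, or 38.9% against 23.9% of all genes, and 0 were higher against 23%. The groups did not overlap for 25 genes that were lower, or 27.8% against 25.5% of all genes.

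**Figure D3:**
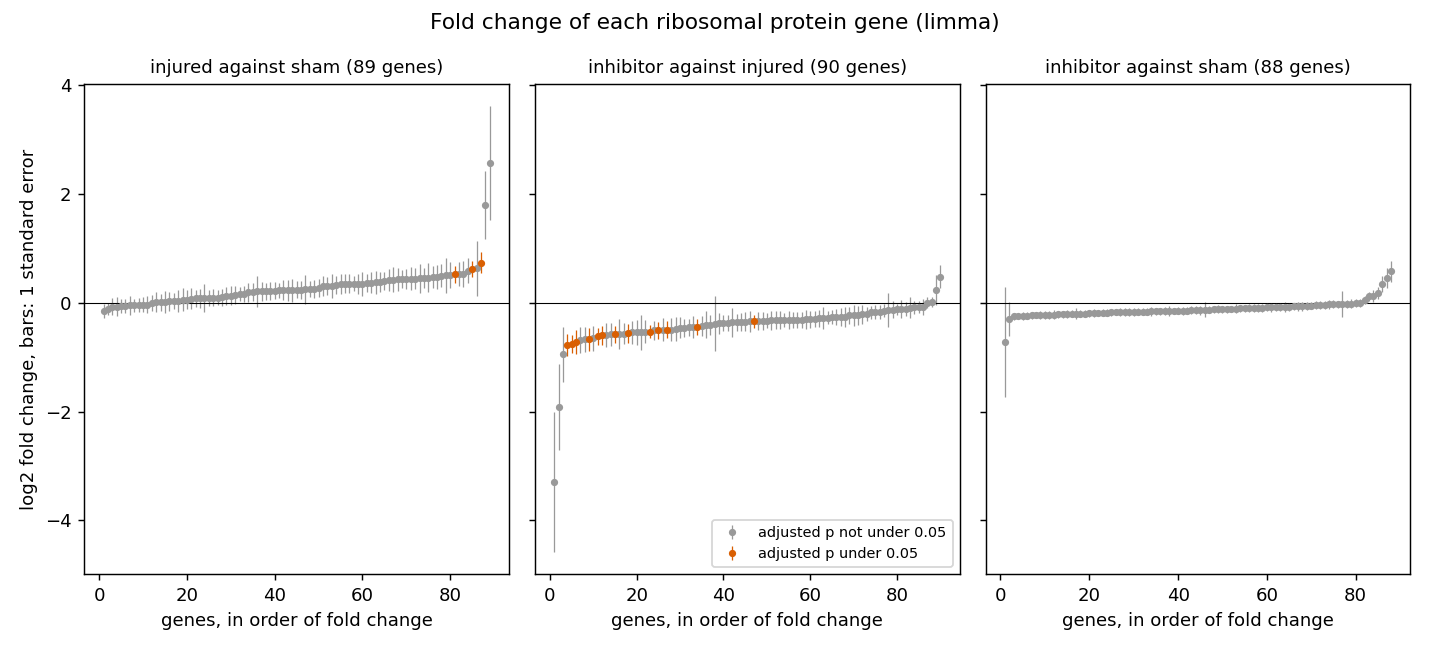
Log2 fold change of each ribosomal protein gene with 1 standard error (vertical axis) in 3 comparisons, genes in order of fold change; orange marks an adjusted p under 0.05 in limma. Most values lie above 0 in injured against sham and below 0 in the other comparisons, and the orange points number 3, 13 and 0.

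Rps28 fell to 0.582 of its injured level (log2 fold change -0.78, SE 0.20, limma adjusted p = 0.0204), and its inhibitor libraries overlapped those of sham. Rps4l fell to 0.588 (log2 fold change -0.77, SE 0.17, limma adjusted p = 0.0108). Rps27a encodes a fusion of ubiquitin and a small-subunit protein. Its levels were 5692, 5157 and 5168 in sham, 10387, 8191 and 5413 in injured and 4780, 4727 and 4539 in inhibitor libraries. The inhibitor libraries lay below all others, and injured replicate 3 lay within the sham range. Rps27a fell by 0.72 on the log2 scale (SE 0.22, limma adjusted p = 0.038).

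Rps18, a protein of the head of the small subunit, stood at 6514, 5795 and 6297 in sham, 10157, 8839 and 6609 in injured and 5514, 5611 and 5245 in inhibitor libraries. It fell by 0.62 (SE 0.16, limma adjusted p = 0.0201), with no overlap between inhibitor and injured libraries. Rps26 is a small-subunit protein at the mRNA exit. It was at 4375, 4053 and 4283 in sham, 6102, 5770 and 4514 in injured and 3732, 3897 and 3595 in inhibitor libraries, and fell by 0.53 (SE 0.13, limma adjusted p = 0.0156). In both genes every inhibitor library was below every sham library.

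Rpl11 forms a particle with Rpl5 and 5S rRNA that restrains Mdm2 and so raises p53. Its levels were 6471, 6326 and 6612 in sham, 9787, 8564 and 6447 in injured and 5560, 5515 and 5260 in inhibitor libraries, and it fell by 0.58 (SE 0.15, limma adjusted p = 0.0238). Rpl5, its partner, had a log2 fold change of -0.21 (limma adjusted p = 0.23), with injured values of 11777, 10440 and 8649 around sham values of 10684, 9940 and 9972. Other called genes included Rpl23 (-0.60), Rpl36a (-0.56), Rpl27a (-0.51), Rpl32 (-0.50) and Rps4x (-0.44), as log2 fold changes.

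**Figure D4:**
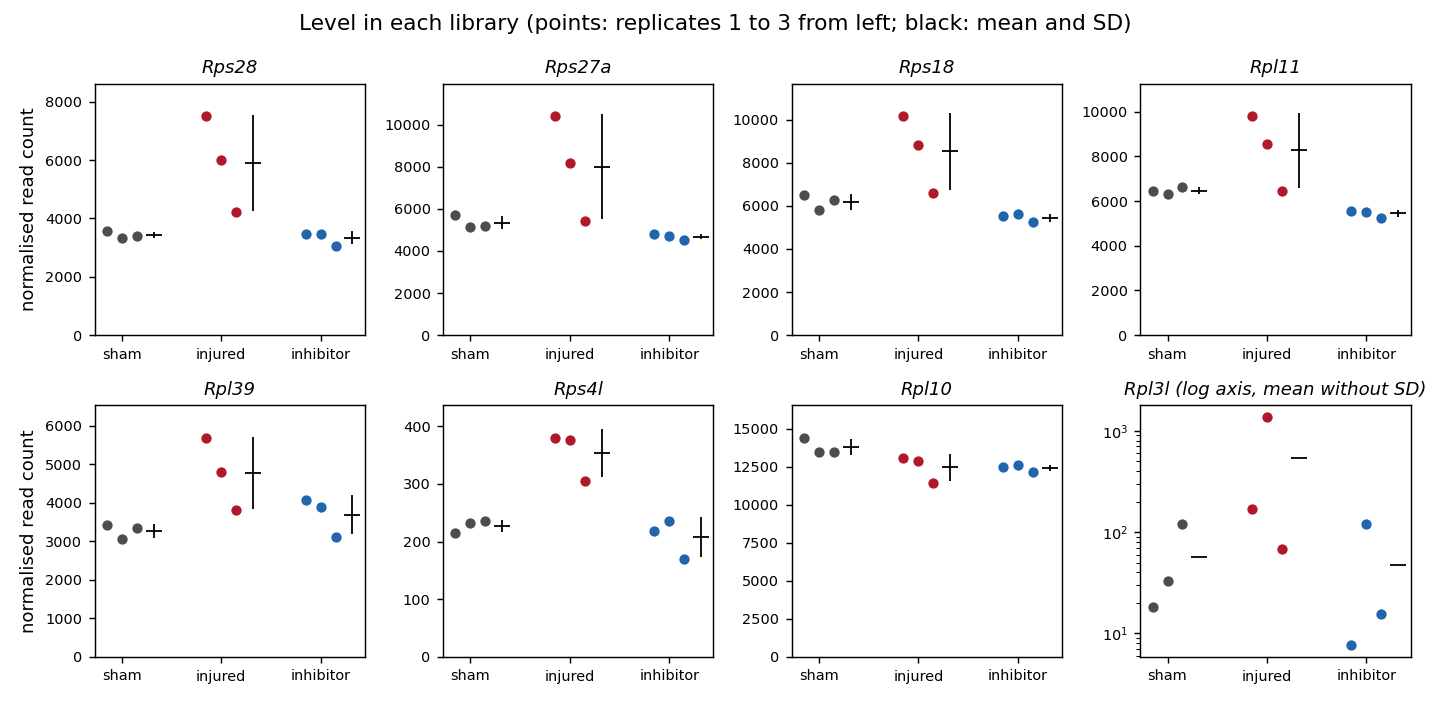
Normalised read count (vertical axis) of 8 genes in the 3 libraries of each group, with the mean and SD in black; Rpl3l is on a log axis. Injured replicate 3 is the lowest injured library in each panel, and Rpl10 shows no rise with injury.

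Injured replicate 3 again weighed heavily. Without it 78 of the 90 genes were lower with the inhibitor, where 23.6% of all genes were. Without injured replicate 1 the count was 5, or 5.56% against 15.7% of all genes, and without injured replicate 2 it was 1, or 1.11% against 14.1%. Without inhibitor replicates 1, 2 or 3 it was 1, 3 or 1, where 12.8%, 13.7% and 14.1% of all genes were lower. Without the 3 libraries that stood apart it was 0, and 0 were higher, where 9.51% of all genes were lower and 8.64% higher. DESeq2 called 32 genes lower, or 35.6%, against 21.1% of all genes. The authors' deposited table also called 32 lower, against 21%. edgeR called 13 lower, or 14.4% against 18.4% of all genes. At an unadjusted p under 0.05 it gave 39 lower, or 43.3% against 24.4% of all genes.

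Against sham, none of the 88 ribosomal protein genes passed the threshold in the inhibitor group by limma or by edgeR's quasi-likelihood test. Of all 16166 genes 0.934% were called lower and 5.15% higher. Without a correction for length and GC content, the family lay slightly below sham all the same. The median log2 fold change was -0.14, against -0.01 over all genes, and 81 of 88 values were below 0. At an unadjusted p under 0.05, limma gave 34 lower, or 38.6% against 8.55% of all genes, and 2 higher, against 12.5%. edgeR gave 33 lower and 3 higher, against 8.3% and 13.1% of all genes. All 3 inhibitor libraries were below all 3 sham libraries for 46 genes, or 52.3% against 13.1% of all genes. This was not particular to the family. The same held for 38 of 78 mitochondrial ribosomal protein genes (median log2 fold change -0.17) and 14 of 27 initiation factors (median -0.13). It held for fewer of the biogenesis genes, 10 of 53 (median -0.09), and TOR signalling genes, 4 of 23 (median 0.01). DESeq2 and the authors' deposited table each called 11 lower, where both called 1.79% of all genes. After the robust length and GC correction, the centred medians over 84 of these genes were 0.10, 0.01 and -0.01 in sham replicates 1 to 3. They were -0.001, -0.04 and -0.07 in inhibitor replicates 1 to 3, so the groups overlapped.

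The lowest adjusted p belonged to Rpl24, a large-subunit protein at the interface of the subunits. Its levels were 2033, 2007 and 1972 in sham and 1653, 1742 and 1641 in inhibitor libraries, which did not overlap (log2 fold change -0.24, SE 0.06, limma adjusted p = 0.0532). Rpl29 was at 5704, 5637 and 5576 in sham and 4723, 4781 and 4816 in inhibitor libraries (log2 fold change -0.23, SE 0.06, limma adjusted p = 0.0573). Both sat outside the rule for naming genes and were picked after their values were seen.

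By subunit, the medians lay farther from 0 in the small than in the large subunit in both comparisons with the injured group, and the difference between subunits was not tested. In injured against sham, the median log2 fold change was 0.31 over 31 small-subunit genes and 0.18 over 46 large-subunit genes, with 1 gene higher in each. In inhibitor against injured it was -0.42 with 7 lower and -0.31 with 5 lower. Against sham the inhibitor group stood at -0.14 in both subunits.

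The P stalk recruits elongation factors to the large subunit. Its 4 measured genes (Rplp0, Rplp1, Rplp2, Rpl12) had 0 calls in any comparison, with medians of 0.44 in injured against sham and -0.46 in inhibitor against injured. Rplp1 was at 13730, 13372 and 13848 in sham, 24932, 19264 and 12924 in injured and 11639, 12675 and 10690 in inhibitor libraries. Injured replicates 1 and 2 stood above every sham library and replicate 3 below them (log2 fold change 0.42, SE 0.23, limma adjusted p = 0.186).

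Along the peptide exit tunnel, Rpl39 was called higher with injury and 0 of the 3 genes were called with the inhibitor. Rpl17 had log2 fold changes of 0.44 and -0.46 in those comparisons, and Rpl4 had -0.07 and -0.11. Around the tunnel's rim, 0 of 6 genes were called, with medians of 0.13 and -0.25. Of the 4 genes along the path of the mRNA (Rps2, Rps3, Rps15, Rps26), Rps26 alone was called, in inhibitor against injured. Their medians were 0.14 and -0.30.

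Of 11 genes mutated in Diamond-Blackfan anaemia, an inherited failure of red cell production, 0 were called with injury and 2, Rps26 and Rpl11, were lower with the inhibitor, or 18.2%, close to the 18.5% of all genes. Of 5 genes with regulatory roles outside or beside peptide synthesis (Rps6, Rpl13a, Rpl38, Rps25, Rpl10a), 0 were called. Rps6, the substrate of the S6 kinases, had log2 fold changes of 0.08 and -0.27. Rpl38, known for selective translation of Hox mRNAs, had 0.51 (SE 0.24) and -0.41 (SE 0.25), on injured levels of 5225, 3627 and 2461.

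Rpl10 and Rpl41 departed from the family in different ways. Rpl10, whose product joins the subunit late in its maturation, was at 14374, 13460 and 13484 in sham, 13096, 12856 and 11448 in injured and 12478, 12605 and 12181 in inhibitor libraries. Every injured library lay below every sham library, but the difference did not pass the test (log2 fold change -0.15, SE 0.13, limma adjusted p = 0.391). Rpl41, a very short protein of the large subunit, stood in the inhibitor group at 12488, 12341 and 8183 against 8512, 8747 and 8438 in sham (log2 fold change 0.35, SE 0.15, limma adjusted p = 0.242). Inhibitor replicates 1 and 2 were above every sham library and replicate 3 was below them. Of the 77 subunit genes, 5 had a log2 fold change above 0 in that comparison, Rpl41 among them. Rpl41 sat outside the rule for naming genes and was picked after its values were seen.

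Among the paralogs, Rpl3l replaces Rpl3 in striated muscle. It was at 18.0, 32.8 and 120 in sham, 169, 1373 and 68.7 in injured and 7.59, 120 and 15.4 in inhibitor libraries. The groups overlapped, and injured replicate 2 stood far above the rest (log2 fold change 2.56, SE 1.05, limma adjusted p = 0.0894 in injured against sham). The skeletal muscle markers, 12 of 12 measured with none at 0, moved with it. Their summed level was 67132, 595350 and 36011 in injured replicates 1 to 3. It ran from 5820 to 33883 in sham and from 2572 to 41699 in inhibitor libraries. Their part in the Rpl3l result was not tested.

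Rpl39l, a paralog best known from the testis, stayed low, at 6.01, 2.34 and 4.36 in sham and 21.5, 29.4 and 6.87 in injured libraries, which did not overlap (log2 fold change 1.79, SE 0.62, limma adjusted p = 0.0524). Rpl22l1 had log2 fold changes of 0.44 with injury and -0.53 with the inhibitor, and Rpl7l1 -0.12 and 0.01, none of them called. The processed copies Rps27rt and Rpl37rt had their highest group means with the inhibitor, Rps27rt at 64.5, 54.1 and 59.1 against 45.1, 35.2 and 39.2 in sham (log2 fold change 0.58, SE 0.20, limma adjusted p = 0.146). Their reads cannot be told from those of Rps27 and Rpl37 with certainty.

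Pseudogenes of ribosomal proteins, whose reads may be shared with the parent genes, were mostly higher with the inhibitor where called. Of 42 measured in inhibitor against injured, 16 were higher, or 38.1% against 17.6% of all genes, and 1 was lower, or 2.38% against 18.5%, with a median log2 fold change of 0.77. Of 41 in inhibitor against sham, 18 were higher, or 43.9% against 5.15% of all genes, and 0 lower against 0.934%, with a median of 1.00. Rpl39-ps was at 13.0, 4.69 and 14.2 in sham and 930, 651 and 254 in inhibitor libraries. Small non-polyadenylated RNAs moved with them: 9 of 9 measured were higher in inhibitor against sham, and their summed level ran from 21991 to 34016 in inhibitor libraries and from 31.6 to 56.1 in sham, with 5 of the 9 at 0 in some library. The part of these RNAs in the pseudogene result was not tested.

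Fau and Rack1 encode small-subunit proteins that the name rule misses. Fau had log2 fold changes of 0.37 with injury and -0.51 with the inhibitor, and Rack1 0.20 and -0.29.

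The list of 19 elongation factors and other TOP mRNAs had 1 gene higher with injury, Pabpc1, and 3 lower, or 15.8% against 18.5% of all genes, and 1 higher with the inhibitor. Eef1b2 (-0.58) and Npm1 (-0.44) were among the lower. Pabpc1, the poly(A)-binding protein, was higher still in inhibitor libraries, at 19737, 34300 and 24140 against 12430, 10324 and 8647 in injured. Eef1a1 showed log2 fold changes of -0.04 and 0.01. Of 8 snoRNA host genes with TOP tracts, Snhg5 and Snhg6 were lower with the inhibitor.

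In the lists of genes that make ribosomes, called shares lay at or under those of all genes, which were 20.6% higher and 16.8% lower with injury and 17.6% higher and 18.5% lower with the inhibitor. Of 53 biogenesis genes, 0 were higher and 8, or 15.1%, lower with injury (median -0.13), and 4, or 7.55%, were higher and 0 lower with the inhibitor (median 0.08). Of 20 genes of RNA polymerase I, 1 was higher and 2 lower with injury, with Taf1a at -1.05 and Taf1d at 0.71. Of 27 initiation factors, 0 were higher and 2 lower with injury, and 2 higher with the inhibitor. Of 78 mitochondrial ribosomal protein genes, 0 were higher and 8, or 10.3%, lower with injury (median -0.10).

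Of 23 TOR signalling genes, 4 were higher with injury (17.4%, against 20.6% of all genes) and 7 lower (30.4% against 16.8%). With the inhibitor 7 were higher (30.4% against 17.6%) and 4 lower (17.4% against 18.5%). In this list, Myc was at 108, 115 and 139 in sham, 357, 331 and 271 in injured and 148, 179 and 133 in inhibitor libraries. It rose with injury (log2 fold change 1.39, SE 0.18, limma adjusted p = 0.000497) and was lower with the inhibitor (-1.05, SE 0.17, limma adjusted p = 0.00299). The injured libraries overlapped neither other group, while the sham and inhibitor libraries overlapped each other. Mtor went the other way, at 1101, 1165 and 1141 in sham, 523, 746 and 968 in injured and 1203, 1135 and 1275 in inhibitor libraries. Larp1 and Rps6kb1 had log2 fold changes of 0.10 and 0.08 with injury, neither called.

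**Figure D5:**
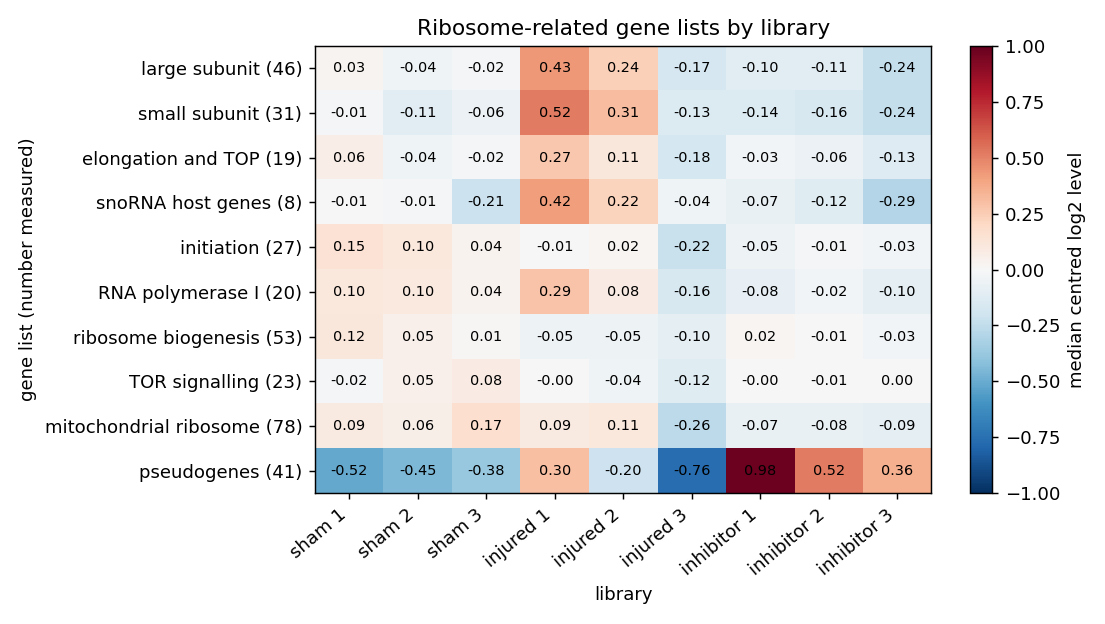
Median log2 level of each gene list (rows, with the number of genes measured) relative to each gene's mean over 9 libraries, by library (columns). The subunit, elongation and snoRNA host rows are highest in injured replicate 1, and the pseudogene row is highest in the inhibitor libraries.

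The genes outside the family whose log2 level followed its median most closely over the 9 libraries, of 10217 with at least 100 normalised counts in each, were Sem1 (Pearson r = 0.995), Rtraf (0.990), Tbca (0.990), Srp9 (0.987) and S100a16 (0.987). The libraries are shared by all of them, and these values are a description. Sem1 was at 3147, 2666 and 1626 in injured libraries and at 1954, 1809 and 1791 in sham, the same order of injured libraries as in the family.

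The labelled tissue carried its markers. The 10 smooth muscle genes were all measured with none at 0, and their summed level ran from 544344 to 724195 in sham, 170951 to 196790 in injured and 640495 to 652835 in inhibitor libraries. The 10 leukocyte genes ran from 2872 to 3969, 28778 to 45833 and 6323 to 10786 in the same order, with none at 0. All 10 leukocyte genes were called higher with injury, with sums of 37358, 45833 and 28778 in injured replicates 1 to 3. The highest was replicate 2, whereas the ribosomal protein genes were highest in replicate 1, and the lowest was replicate 3 in both. The 8 endothelial genes summed to between 21363 and 33502 in sham, to 29636, 40644 and 44054 in injured replicates 1 to 3 and to between 26654 and 28267 in inhibitor libraries, with none at 0. Of them 6 were called higher with injury, and 6 lower with the inhibitor. The 6 fibroblast genes summed to between 46743 and 55432 in sham, to 116334, 83263 and 102176 in injured replicates 1 to 3 and to between 39488 and 40553 in inhibitor libraries, with none at 0. Dcn, Dpt, Lum and Pdgfra among them were called higher with injury and lower with the inhibitor, the directions of the ribosomal protein calls. Pi16, of the same list, was called the other way in both comparisons, lower with injury and higher with the inhibitor. The 6 fat cell genes summed to between 17783 and 40944 in sham, 32810 and 53126 in injured and 13093 and 18200 in inhibitor libraries, with none at 0. Of them 2 were called higher with injury and 5 lower with the inhibitor, and Ucp1 was called the other way in both. Red cell genes summed to between 37669 and 88119 in inhibitor libraries and to between 200 and 376 in sham, over 9 of 10 genes measured, with Gata1, Rhag and Tspo2 at 0 in some library. The 10 liver genes reached 32631 in inhibitor replicate 3 and ran from 505 to 856 in sham, with 4 of them at 0 in some library. In injured replicate 2 the 12 skeletal muscle genes summed to 595350, above the 193388 of the 10 smooth muscle genes there. In bulk tissue, fewer cells of a type and less RNA per cell cannot be told apart, and the part of these cell types in the ribosomal protein result was not tested.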

How the data were processed

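RNA-seq of 9 libraries, 3 per group, was analysed from 3 tables, each holding 2 groups. The build was mm10 (GRCm38), per the submitters' processing notes. Aligner and counter: not given in the sources used here. The deposited values are read counts divided by 1 factor per library, a normalised signal that the authors scaled separately in each table. Whole reads were recovered from the deposited signal: 100% of values came out whole within 0.01 read.

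Genes with a mean of at least 10 were tested within each table with limma 3.58.1 on log2(value + 1) with a mean-variance trend, two-sided, and adjusted by Benjamini-Hochberg over all genes tested. Fold changes are on that scale. Levels over 9 libraries use median-of-ratios factors over 16750 genes. edgeR 4.0.16 and DESeq2 1.42.0 were run on recovered reads. The deposited adjusted p-values and log2 fold changes of the authors were counted as given. Transcript length came from GENCODE M21. The fit was tested on simulated data. The members and lists were chosen with earlier results of these data known. Genes named are, for each comparison, the 10 called members with the largest change, up to 4 per role list, at most 3 called per related list, Myc, Mtor, Larp1 and Rps6kb1, and the 5 genes most like the family. Some genes named sit outside this rule, among them Rpl24, Rpl29 and Rpl41. With 3 libraries against 3, an exact permutation test cannot go under 0.1, so none is given. A few genes are counted but not reported by name here.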

Additional observations from a re-analysis of the deposited data

How the results depend on the processing

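Counts are of ribosomal protein genes past an adjusted p of 0.05. In injured against sham, 3 were higher and 0 lower as reported. The count higher was 17 with DESeq2 (19.1%, against 21.9% of all genes) and 16 in the authors' deposited table (18.0% against 21.9%). It was 11 with all 9 libraries in 1 fit (12.4% against 23.0%). Array weights gave 53 (59.6% against 30.7%), but their estimation did not converge. Quantile normalisation gave 38 (42.7% against 17.5%). The robust length and GC correction gave 13 (15.3% against 22.8%), and 13 with a replicate block (15.3% against 22.3%). Without the 3 libraries that stood apart it was 1 (1.12% against 15.6%). The least-squares correction gave 1 higher (1.18% against 18.8% of all genes) and 11 lower (12.9% against 36.6%). With a replicate block it gave 1 higher (1.18% against 18.7%) and 12 lower (14.1% against 34.8%). The median log2 fold change was -0.10 in both. Leaving out 1 library gave between 1 and 54 higher and medians between 0.11 and 0.44.

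In inhibitor against injured, 13 were lower as reported. The count lower was 32 with DESeq2 and in the authors' deposited table, 30 with all 9 libraries, 76 with array weights (84.4% against 31.8% of all genes), 60 with quantile normalisation (66.7% against 17.6%), 21 with upper quartile scaling and 0 without the 3 libraries. Array weights and quantile normalisation each gave 1 higher (1.11%, against 31.2% and 17.7% of all genes). The robust correction gave 26 lower (30.6% against 21.2%), or 28 with a replicate block (32.9% against 20.3%). The least-squares form with a replicate block gave 24 (28.2% against 18.1%). Leaving out 1 library gave between 1 and 78 lower and medians between -0.52 and -0.20.

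In inhibitor against sham, the count lower was 11 with DESeq2 and in the authors' deposited table (12.5%, against 1.79% of all genes in both). It was 4 with upper quartile scaling (4.55% against 1.38%). Array weights and quantile normalisation each gave 1 (1.14%, against 1.11% and 1.36%). The least-squares correction gave 30 lower (35.7% against 11.9%), or 63 with a replicate block (75% against 15.5%), with a median of -0.29 in both. Without the 3 libraries 1 gene was higher (1.14% against 3.95%). Leaving out 1 library gave between 0 and 1 higher and medians between -0.16 and -0.09. Over the other 19 alternatives the medians ran from -0.29 to -0.07.

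Replicate numbers are shared by the groups, and the labels do not say whether they mark a shared day or batch. Same-numbered libraries deviated together with correlations between -0.07 and 0.21, which are too few and too small to decide it. With the number as a replicate block, 3 were higher in injured against sham, or 3.37% against 20.2% of all genes. In inhibitor against injured 29 were lower, or 32.2% against 17.8%. In inhibitor against sham 0 were called, where 4.71% of all genes were higher and 0.711% lower. A different pseudocount, low-count filter or scaling without the ribosomal protein genes left the counts at 3, 13 and 0, which does not show that the same genes were called. Both length and GC corrections were chosen after the data were seen, the robust form after the output of the other. No call of a named ribosomal protein gene reversed in the alternatives run. Beyond the settings themselves, the cause of these shifts was not tested. With 3 libraries a group, the number of libraries limits the precision.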
